A study of Mus musculus with 12 samples.

Results

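The 37 genes of the mouse mitochondrial genome were followed in MMTV-NIC cells, a mouse breast cancer model, by RNA sequencing of 12 libraries. The members are all genes that the deposited count tables place on chromosome MT: 13 coding genes, 2 ribosomal RNA (rRNA) genes and 22 transfer RNA (tRNA) genes, of 54232 genes in all. MMTV-NIC cells come from mammary tumours in which the mouse mammary tumour virus promoter drives an activated Neu (ErbB2) receptor together with Cre recombinase, and all 4 groups share this background. AXL, a receptor tyrosine kinase, was present (AXL WT) or knocked out (AXL KO), and each genotype was held in 21% oxygen (normoxia) or 1% oxygen (hypoxia), with 3 libraries per group. The labels give neither the time in hypoxia nor the number of knockout clones nor the origin of the replicates, so a p-value here measures the spread between libraries alone, which may be technical. The question the series names is how the genotypes differ under hypoxia.

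Mitochondrial DNA is a small circle that is read from both strands as long precursor RNAs, which are cut mostly at the tRNAs that lie between the other genes. Every protein it encodes is a subunit of the respiratory chain or of ATP synthase: the Nd genes encode parts of complex I, mt-Cytb a part of complex III, the Co genes parts of complex IV, and mt-Atp6 and mt-Atp8 parts of ATP synthase. mt-Rnr1 and mt-Rnr2 encode the RNAs of the small and large subunits of the mitochondrial ribosome and lie near the start of the + strand precursor. On the + strand lie 12 coding genes, both rRNAs and 14 tRNAs, and on the − strand mt-Nd6 and 8 tRNAs.

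A stretch of the mitochondrial genome could not be measured, and the sequences of its genes show why the low counts there are not read as levels. mt-Co2, mt-Atp8, mt-Atp6, mt-Co3, mt-Nd3 and mt-Nd4l, which lie together between positions 7013 and 10173 of chromosome MT, had 0 to 10 counts in every library. For 5 of them a nuclear transcript on chromosome 1 held the same letters almost from end to end. mt-Co2 was identical to Gm28661 over 681 bases, mt-Atp6 to Gm10925 over 678, mt-Co3 to Gm28437 over 783 and mt-Nd4l to Gm10222 over 294, while mt-Nd3 and Gm28438 differed at 1 of 345 bases. Per the file headers, fragments that mapped to more than 1 place were not counted, so fragments of these genes and of their nuclear copies cannot be told apart. The sequences given here, from the GENCODE M21 transcripts (GRCm38), show the identical gene, the pair with the single difference (capital letter, T3C, counted from 1 at the 5′ end of mt-Nd3), the mt-Atp8 gene with its overlap with mt-Atp6 in capitals, and mt-Tl1, the tRNA with the most counts. mt-Nd4l is given from 9877 to 10170 and the first 300 bases of mt-Nd3 from 9459 to 9758 on the + strand of chromosome MT, and those of Gm28438 from 24612820 to 24613119 on the − strand of chromosome 1.
mt-Nd4l: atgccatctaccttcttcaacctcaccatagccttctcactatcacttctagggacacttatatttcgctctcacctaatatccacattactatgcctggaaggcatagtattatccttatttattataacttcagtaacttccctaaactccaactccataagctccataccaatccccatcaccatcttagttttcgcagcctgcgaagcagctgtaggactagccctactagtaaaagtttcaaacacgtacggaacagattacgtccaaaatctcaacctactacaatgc
mt-Nd3: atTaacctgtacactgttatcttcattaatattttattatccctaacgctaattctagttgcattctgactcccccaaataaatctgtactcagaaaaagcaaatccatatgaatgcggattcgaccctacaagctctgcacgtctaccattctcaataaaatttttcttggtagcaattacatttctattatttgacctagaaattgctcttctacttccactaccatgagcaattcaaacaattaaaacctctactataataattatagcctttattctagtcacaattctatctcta
Gm28438: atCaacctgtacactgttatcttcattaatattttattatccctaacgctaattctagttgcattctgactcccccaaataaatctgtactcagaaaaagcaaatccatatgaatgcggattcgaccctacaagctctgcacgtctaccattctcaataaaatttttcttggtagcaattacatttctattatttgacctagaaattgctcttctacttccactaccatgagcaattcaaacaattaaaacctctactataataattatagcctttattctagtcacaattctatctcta
mt-Atp8: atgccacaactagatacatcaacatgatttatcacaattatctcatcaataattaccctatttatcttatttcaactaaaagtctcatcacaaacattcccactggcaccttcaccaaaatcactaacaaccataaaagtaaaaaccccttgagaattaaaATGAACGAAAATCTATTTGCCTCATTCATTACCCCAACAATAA
mt-Tl1: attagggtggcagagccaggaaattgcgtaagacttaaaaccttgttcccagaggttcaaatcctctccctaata

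Gm28438 itself had 10 to 67 counts per library, against 0 or 1 for mt-Nd3. mt-Atp8 (7766 to 7969) shares 43 bases with mt-Atp6, and per the file headers fragments that overlapped 2 genes were not counted. It had 0 to 4 counts in every library, and 21.1% of its bases lay in a nuclear transcript at 98% identity or more. Sequence outside annotated transcripts was not compared, so whether the nuclear copy runs on through mt-Atp8 was not tested. Among the genes that were measured, mt-Nd4 was identical to Gm28439 over 876 of its 1378 bases, and 502 bases lay outside that stretch; from which of them its counts came was not tested. mt-Co1 shared 483 of its 1545 bases with nuclear transcripts at that identity, and over its whole length it was 97.6% identical to Gm13340 on chromosome 2, which had 173 to 336 counts per library. mt-Nd1, mt-Nd2, mt-Nd5, mt-Nd6, mt-Cytb and both rRNAs had no such stretch.

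**Figure D1:**
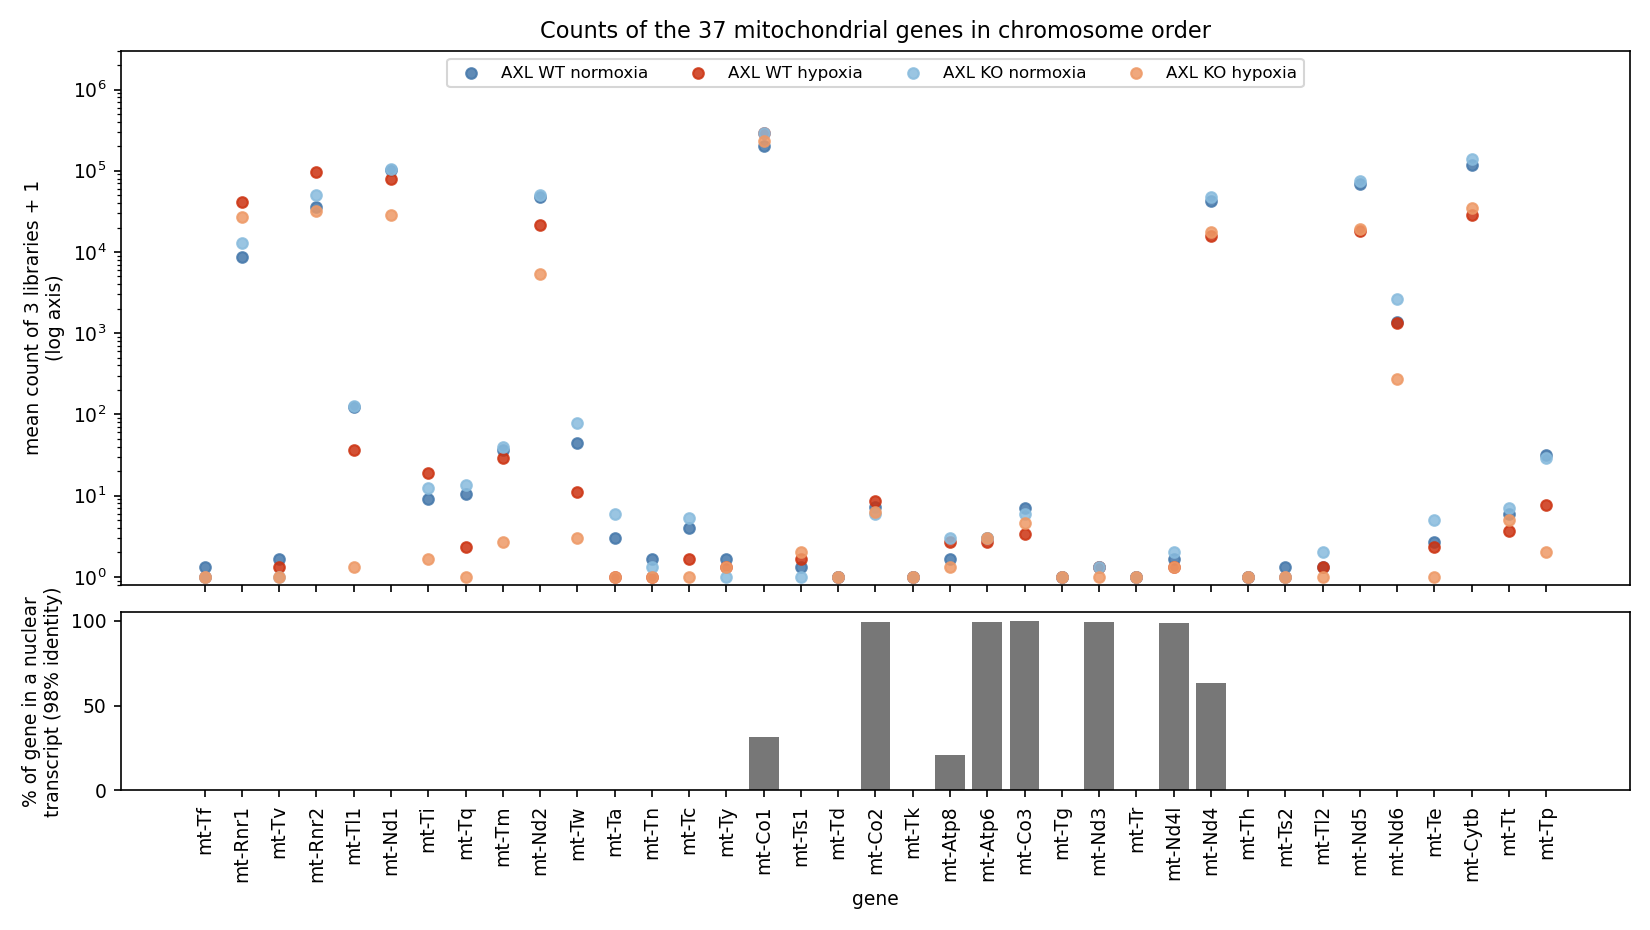
Upper panel: mean count of 3 libraries plus 1 (log axis) for the 37 genes in chromosome order, coloured by group. Lower panel: percent of each gene found in a nuclear transcript at 98% identity or more. Genes with a bar near 100% have 0 to 10 counts per library, and mt-Co1 has 189169 to 314133.

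Gene totals were 45297267 to 58775422 counts per library, and 15 members passed the filter on low counts: 7 coding genes, both rRNAs and 6 tRNAs. Axl, the check of the genotype labels, stood at 417 to 1173 CPM (counts divided by the library total and scaled to a common unit) in AXL WT libraries and at 1.48 to 3.40 in AXL KO libraries. The luminal epithelial markers Krt8 and Krt18 were at 297 to 1281 CPM in all libraries, whereas Krt19, a further luminal keratin, was at 0 to 0.280. The AXL WT hypoxia libraries lay far apart from each other, with chi-square values, divided by their degrees of freedom, of 391 (replicates 1 and 2), 222 (1 and 3) and 116 (2 and 3), against 36.9 or less for pairs in the other groups. Some luminal markers moved with this. Erbb2 was at 2299 CPM in replicate 1 and at 120.2 and 374 CPM in replicates 2 and 3. Whether Erbb2 counts came from the promoter-driven Neu or from the cells' own gene was not tested. Krt8 was at 791, 297 and 435 CPM and Krt18 at 1106, 341 and 397 CPM. Cdh1 (45.3, 21.1 and 21.3 CPM), Cldn3 (55.8, 22.6 and 44.9 CPM) and Cldn4 (154, 92.2 and 138 CPM) were also lower in both replicates 2 and 3. Epcam (43.9, 95.1 and 44.3 CPM), Elf5 (0.970, 1.48 and 2.16 CPM) and Gata3 (119.8, 147 and 101 CPM) were not lower in both. The summed leukocyte markers ran from 12.6 to 139 CPM over the 12 libraries, with Cd3e and Itgam below 0.1 in each. Csf1r, a macrophage receptor, was at 5.17, 133 and 42.7 CPM in AXL WT hypoxia and at 0.188 CPM or less in the other libraries, and Cd68 at 42.3 to 83.6 CPM in AXL KO and 5.29 to 14.5 CPM in AXL WT libraries, while fibroblast and endothelial sums ran from 65.3 to 220.0 and 0.927 to 15.5 CPM. Single genes made up much of these sums. Kdr was at 13.4 to 14.8 CPM in AXL KO hypoxia, with Pecam1, Cdh5, Tek and Emcn at 0.667 CPM or less in every library. Pdgfrb was at 117 to 125 CPM in AXL KO normoxia and Pdgfra at 6.98 to 65.2 CPM over all libraries. Lum and Fap were at 0.107 CPM or less. The part of these markers in the results was not tested. Calls that rest on AXL WT hypoxia are given with and without replicates 2 and 3 for the coding genes, the rRNAs and the nuclear lists. The nuclear genes named kept their calls and directions without them.

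Measured mitochondrial coding RNA made up less of the hypoxia libraries than of the normoxia libraries in both genotypes, and least of the AXL KO hypoxia libraries. It stems in effect from the 7 coding genes that passed the filter, as the others lie in the stretch that could not be measured. Its share of all counts in AXL WT was 1.35%, 1.26% and 1.11% under normoxia and 0.867%, 1.00% and 1.05% under hypoxia. In AXL KO it was 1.20%, 1.28% and 1.25% under normoxia and 0.644%, 0.685% and 0.680% under hypoxia. Hypoxia and normoxia libraries did not overlap in either genotype, and the AXL KO hypoxia libraries were the lowest of the 12. On the CPM scale used from here on (scaled by TMM, a method that corrects for library composition) the coding sum was 10404 ± 860.1, 10049 ± 938, 12457 ± 496 and 7735 ± 214 (SD, n = 3) in these groups. On this scale the AXL WT groups overlapped. The log2 difference between hypoxia and normoxia was −0.05 in AXL WT (two-sided exact permutation p = 0.6) and −0.69 in AXL KO (exact permutation p = 0.1). AXL KO differed from AXL WT by 0.26 in normoxia and by −0.37 in hypoxia (exact permutation p = 0.1 for both). With 3 libraries against 3 the smallest p is 0.1, and no adjusted p of the 16 such tests was below 0.16. In bulk RNA, fewer cells of a type and less RNA per cell cannot be told apart.

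Per gene length, mt-Co1 had the highest level, in every group mean, of the 7 coding genes that passed the filter. In AXL WT normoxia it stood at 2332 ± 172 CPM per kilobase (SD, n = 3), followed by mt-Nd1 at 1890.4 ± 149.7 and mt-Cytb at 1854 ± 172, which overlapped. mt-Nd2 at 819 ± 70.6, mt-Nd5 at 679 ± 62.2 and mt-Nd4 at 549.6 ± 49.5 came next, and mt-Nd6 was lowest of these 7 at 47.5 ± 2.89. Dividing the CPM of the whole gene by its bases outside nuclear copies gave 3393 for mt-Co1 and 1509 for mt-Nd4 in that group. The place of mt-Nd4 in this order thus depends on the length used. No counts were limited to those bases, so these values assume that all fragments came from them. The rRNAs, at 165 ± 15.3 (mt-Rnr1) and 406 ± 23.5 (mt-Rnr2) CPM per kilobase, lay below all + strand coding genes that passed the filter. Nuclear genes annotated as rRNA took 0.00034% to 0.00095% of counts. Fragments that mapped to more than 1 place were not counted, so this is not the share of all cytoplasmic rRNA. How well the libraries captured rRNA beside coding RNA was not tested. The order of rRNAs and coding genes here is therefore not read as their order in cells.

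In AXL WT cells, hypoxia went with more mitochondrial rRNA and more mt-Co1 RNA, and with less RNA of mt-Nd2, mt-Nd4, mt-Nd5 and mt-Cytb. By edgeR's quasi-likelihood test with Benjamini-Hochberg adjustment over all 16767 genes tested, of 7 coding genes mt-Co1 rose, 4 fell and the others (mt-Nd1 and mt-Nd6) were not called, and both rRNAs rose. Over all genes, 59.8% were called in this comparison (29.2% higher, 30.7% lower). The median log2 fold change was −0.85 for the coding genes and 2.16 for the rRNAs, against −0.02 for all genes. Without replicates 2 and 3 of AXL WT hypoxia, which leaves a single library assumed to vary like the other groups, 6 coding genes and 1 rRNA were lower and 1 of each was higher, with 64.5% of all genes called then (31.1% higher, 33.4% lower).

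In AXL KO cells, hypoxia went with less RNA of every tested coding gene but mt-Co1, and with more mt-Rnr1. Of 7 coding genes 6 fell, none rose and 1 was not called, and of the rRNAs 1 rose and 1 was not called. Over all genes 58.0% were called (27.3% higher, 30.6% lower). The median log2 fold change was −1.55 for the coding genes and 0.61 for the rRNAs, against −0.03 for all genes. Leaving out AXL WT hypoxia replicates 2 and 3, which changes the genes tested and the estimated spread, gave the same counts but for mt-Rnr2, then called lower, beside 71.6% of all genes (34.8% higher, 36.8% lower).

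Between genotypes, 1 of the 7 coding genes was called in normoxia and 4 in hypoxia, where the share of coding genes called was near that of all genes. In normoxia mt-Co1 rose in AXL KO, and the other 6 coding genes and both rRNAs were not called, where 59.7% of all genes were called (29.7% higher, 30.0% lower). The AXL KO libraries lay above the AXL WT libraries in normoxia without overlap for mt-Rnr1, mt-Rnr2, mt-Co1, mt-Nd6 and mt-Cytb. The share of all genes without overlap was not counted. A fit of the 6 normoxia libraries alone called mt-Rnr1 (0.49, adjusted p = 0.00546), mt-Rnr2 (0.44, adjusted p = 0.0014) and mt-Nd6 (0.88, adjusted p = 9.22e-07) higher in AXL KO. That fit called 12610 of 15866 genes (6187 higher, 6423 lower). In hypoxia 4 coding genes (mt-Nd1, mt-Nd2, mt-Co1 and mt-Nd6) and mt-Rnr2 were lower in AXL KO, and 3 coding genes and mt-Rnr1 were not called, where 63.0% of all genes were called (29.9% higher, 33.0% lower). The median log2 fold change of the coding genes was 0.14 in normoxia and −0.28 in hypoxia, against −0.03 and −0.04 for all genes. The response to hypoxia differed between genotypes (interaction) for the same 4 coding genes and mt-Rnr2, with 28.8% of all genes called (13.5% higher, 15.3% lower). With AXL WT hypoxia replicates 2 and 3 left out, mt-Rnr1 (0.50, adjusted p = 0.00168), mt-Rnr2 (0.45, adjusted p = 0.000154), mt-Nd6 (0.89, adjusted p = 1.69e-05) and mt-Cytb (0.19, adjusted p = 0.0408) were also called higher in AXL KO in normoxia, where 74.7% of all genes were called then (36.7% higher, 38.0% lower). In hypoxia 3 coding genes were then lower and both rRNAs higher in AXL KO, beside 58.3% of all genes (29.1% higher, 29.3% lower), and the interaction was called for the 4 coding genes alone, beside 37.2% (18.1% higher, 19.1% lower). The comparisons share libraries, so their values are set side by side and are not independent.

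**Figure D2:**
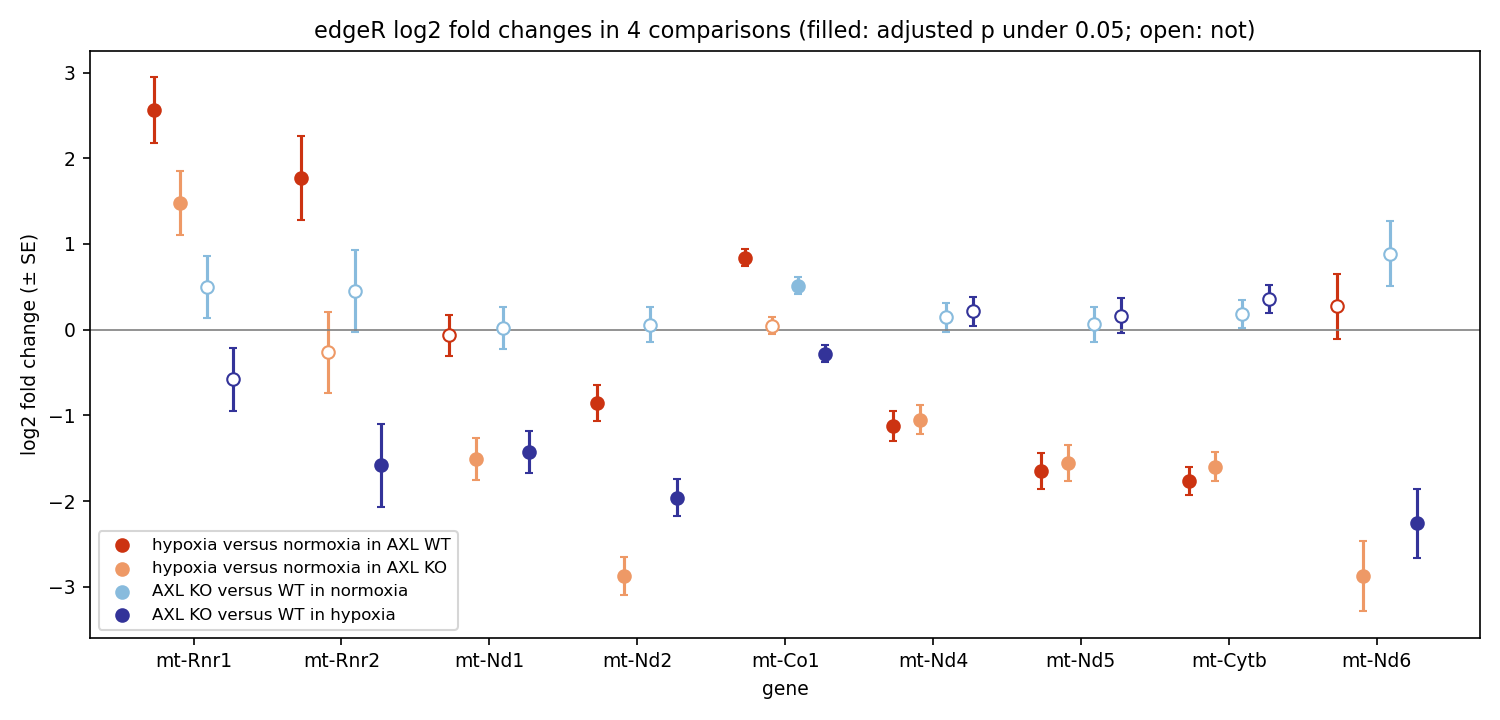
edgeR log2 fold changes (± SE, n = 3 libraries per group) of 2 rRNAs and 7 coding genes in 4 comparisons. Filled points passed an adjusted p of 0.05. mt-Nd4, mt-Nd5 and mt-Cytb fall in hypoxia in both genotypes, and mt-Nd1, mt-Nd2 and mt-Nd6 separate the genotypes in hypoxia.

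mt-Rnr1 (ENSMUSG00000064337, chromosome MT, 70 to 1024), the RNA of the small ribosomal subunit, was higher in every hypoxia library than in any normoxia library. It stood at 160.3, 170.1 and 141 CPM in AXL WT normoxia and at 454, 1686 and 643 CPM in AXL WT hypoxia. In AXL KO it stood at 199, 274 and 194 CPM in normoxia and at 591, 641 and 628 CPM in hypoxia. The log2 fold change in hypoxia was 2.56 ± 0.38 in AXL WT (adjusted p = 0.000139) and 1.48 ± 0.37 in AXL KO (adjusted p = 0.00475). Without AXL WT hypoxia replicates 2 and 3 the value in AXL WT was 1.54 (adjusted p = 1.65e-06), and the difference between the responses went from −1.08 ± 0.51 (adjusted p = 0.136) to −0.06. With replicate 1 alone left out that difference was −1.40 (adjusted p = 0.00781). AXL KO against WT was 0.50 ± 0.36 under normoxia (adjusted p = 0.253), a difference that passed without AXL WT hypoxia replicate 2 (adjusted p = 0.0123). Under hypoxia it was −0.58 ± 0.36 (adjusted p = 0.18), or −0.90 with AXL WT hypoxia replicate 1 left out (adjusted p = 0.0106) and 0.17 with replicate 2 left out.

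mt-Rnr2 (ENSMUSG00000064339, 1094 to 2675), the RNA of the large subunit, was high in AXL WT hypoxia replicates 2 and 3 only. It stood at 679, 643 and 604 CPM in AXL WT normoxia and at 513, 3969.8 and 2082 CPM in AXL WT hypoxia, where replicate 1 lay below all normoxia libraries. It stood at 845, 1021 and 764 CPM in AXL KO normoxia and at 735, 713 and 744 CPM in AXL KO hypoxia, a group just below its normoxia counterpart without overlap. The edgeR values were 1.77 ± 0.49 for hypoxia in AXL WT (adjusted p = 0.00814), −0.26 ± 0.48 for hypoxia in AXL KO (adjusted p = 0.66), −1.58 ± 0.49 for AXL KO against WT in hypoxia (adjusted p = 0.0135) and −2.03 ± 0.68 for the interaction (adjusted p = 0.0422). With replicates 2 and 3 of AXL WT hypoxia left out they were −0.31, −0.26, 0.50 and 0.05, so 3 of them turned. Without replicate 2 alone the genotype difference in hypoxia was −0.83 (adjusted p = 0.0829), and the interaction was lost when any library but AXL WT hypoxia replicate 1 was left out (adjusted p = 0.066 to 0.0912). In normoxia AXL KO was above AXL WT by 0.45 ± 0.48 (adjusted p = 0.434) with no overlap between the libraries, and this passed the test with replicate 1 of AXL WT hypoxia left out (adjusted p = 0.038).

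The balance of the rRNAs shifted with oxygen in all 12 libraries. The ratio of mt-Rnr2 to mt-Rnr1 counts in AXL WT was 4.23, 3.78 and 4.28 under normoxia and 1.13, 2.36 and 3.24 under hypoxia. In AXL KO it was 4.24, 3.73 and 3.93 under normoxia and 1.24, 1.11 and 1.18 under hypoxia. Every hypoxia library lay below every normoxia library, with AXL WT hypoxia replicate 1 at the level of AXL KO hypoxia and replicates 2 and 3 in between. Per length the ratio was 2.47 ± 0.166 and 2.39 ± 0.157 in normoxia and 1.35 ± 0.638 and 0.712 ± 0.0397 in hypoxia (AXL WT and AXL KO, SD, n = 3). The log2 difference in hypoxia was −0.996 in AXL WT and −1.75 in AXL KO (exact permutation p = 0.1 for both). The former was −1.86 when replicates 2 and 3 of AXL WT hypoxia were left out, a check chosen after the data were seen. These ratios lie within a library and do not depend on the scaling between libraries.

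The ratio of all mitochondrial rRNA counts to coding counts, in effect those of the 7 coding genes that passed the filter, rose alongside. It was 0.0754, 0.0765 and 0.0789 in AXL WT under normoxia. In AXL KO it was 0.0878, 0.102 and 0.0750 under normoxia and 0.177, 0.173 and 0.174 under hypoxia. AXL WT hypoxia held the lowest and the highest of the hypoxia libraries, at 0.107, 0.517 and 0.269. The log2 difference in hypoxia was 1.68 in AXL WT and 0.996 in AXL KO (exact permutation p = 0.1 for both), and the former was 0.47 without AXL WT hypoxia replicates 2 and 3. Between genotypes in hypoxia the difference was −0.49 (exact permutation p = 0.7) and turned to 0.71 without those libraries.

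**Figure D3:**
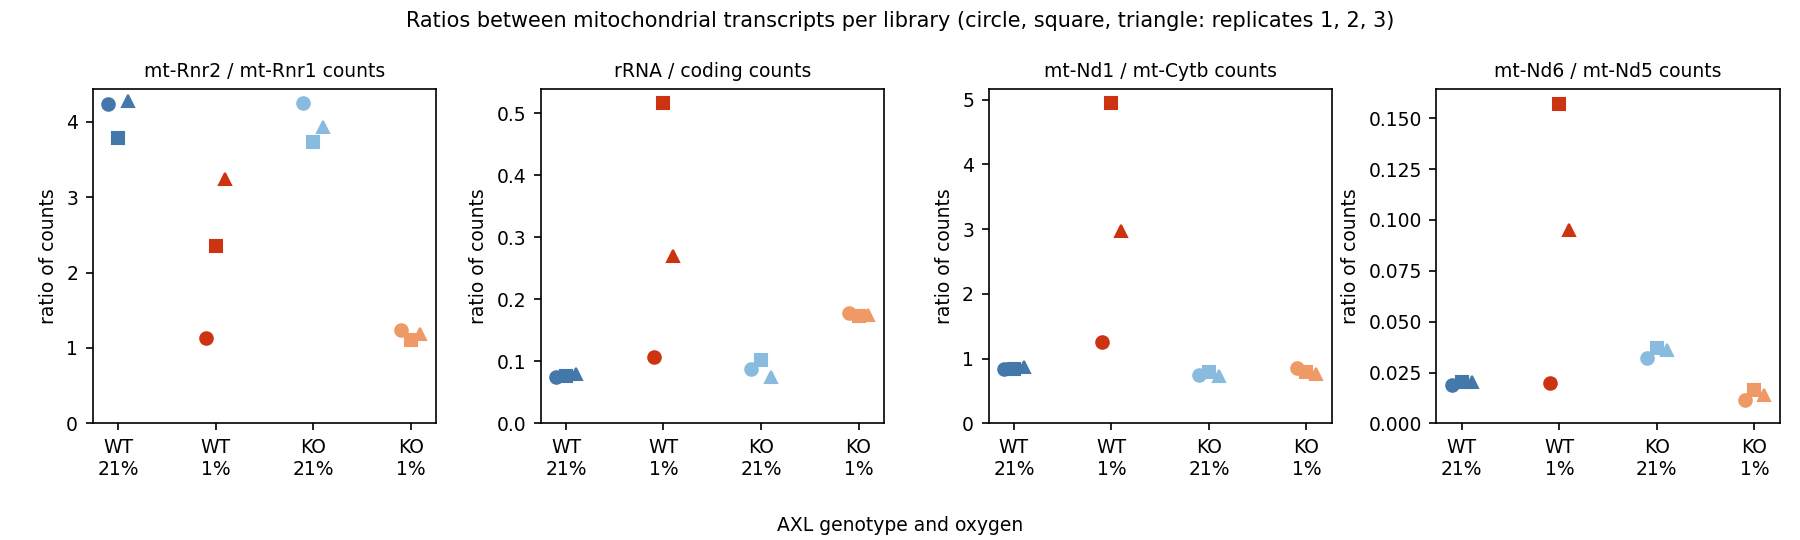
Ratios of counts within each library: mt-Rnr2 to mt-Rnr1, rRNA to coding, mt-Nd1 to mt-Cytb and mt-Nd6 to mt-Nd5, by genotype (AXL WT, KO) and oxygen (21%, 1%). Each point is a library. AXL WT hypoxia replicates 2 and 3 (red square and triangle) lie apart from all other libraries in the last 3 panels, and every hypoxia library is below every normoxia library in the first.

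mt-Cytb (ENSMUSG00000064370, 14145 to 15288), the cytochrome b of complex III, fell in hypoxia in both genotypes by similar amounts. It stood at 2283, 2178 and 1902 CPM in AXL WT normoxia and at 725, 439.9 and 705 CPM in AXL WT hypoxia. It stood at 2304, 2509.5 and 2429 CPM in AXL KO normoxia and at 724, 809 and 858 CPM in AXL KO hypoxia. All 6 hypoxia libraries were below all 6 normoxia libraries, AXL WT replicate 2 the lowest of them. The log2 fold change was −1.77 ± 0.17 in AXL WT (3.40-fold lower, adjusted p = 4.33e-06) and −1.60 ± 0.17 in AXL KO (3.03-fold lower, adjusted p = 1.09e-05), and the responses differed by 0.17 ± 0.23 (adjusted p = 0.624). The response in AXL WT was −1.54 when replicates 2 and 3 of AXL WT hypoxia were left out (adjusted p = 9.15e-09). AXL KO against WT in hypoxia was 0.36 ± 0.16 (adjusted p = 0.0744), and it passed the test with AXL WT hypoxia replicate 1 left out (0.49, adjusted p = 0.0151) or replicate 3 (0.45, adjusted p = 0.0491) but was 0.13 without replicates 2 and 3.

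mt-Nd4 (ENSMUSG00000064363, 10167 to 11544) and mt-Nd5 (ENSMUSG00000064367, 11742 to 13565), membrane subunits of complex I that pump protons, behaved like mt-Cytb. mt-Nd5 in AXL WT stood at 1347, 1246 and 1120.4 CPM under normoxia and 513, 246 and 425 CPM under hypoxia, and in AXL KO at 1251, 1269 and 1366 CPM and 398, 441 and 484 CPM. mt-Nd4 in AXL WT stood at 811, 781 and 681 CPM under normoxia and 442, 243 and 359 CPM under hypoxia, and in AXL KO at 801, 869.7 and 840.4 CPM and 376, 407 and 429 CPM. In both genes every hypoxia library was below every normoxia library, and AXL WT hypoxia replicate 2 was the lowest of all. The log2 fold change of mt-Nd5 was −1.65 ± 0.21 in AXL WT (adjusted p = 3.98e-05) and −1.55 ± 0.21 in AXL KO (adjusted p = 6.89e-05). That of mt-Nd4 was −1.12 ± 0.17 (adjusted p = 0.000165) and −1.05 ± 0.17 (adjusted p = 0.000286). The interaction was 0.10 ± 0.29 for mt-Nd5 (adjusted p = 0.844) and 0.07 ± 0.24 for mt-Nd4 (adjusted p = 0.863). On leaving out replicates 2 and 3 of AXL WT hypoxia, the response in AXL WT was −1.26 for mt-Nd5 (adjusted p = 1.01e-07) and −0.77 for mt-Nd4 (adjusted p = 8.61e-06). Between genotypes neither gene was called in either oxygen level, except mt-Nd4 in hypoxia without AXL WT hypoxia replicate 1 (0.43, adjusted p = 0.0135).

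mt-Nd2 (ENSMUSG00000064345, 3914 to 4951), a further membrane subunit of complex I, fell in hypoxia in both genotypes and far more in AXL KO. It stood at 913, 869 and 769.6 CPM in AXL WT normoxia and at 285, 544 and 583 CPM in AXL WT hypoxia. It stood at 853, 938 and 868 CPM in AXL KO normoxia and at 111, 119.5 and 132 CPM in AXL KO hypoxia. Normoxia groups overlapped, whereas each AXL KO hypoxia library was below each AXL WT hypoxia library. The log2 fold change in hypoxia was −0.85 ± 0.21 in AXL WT (adjusted p = 0.00391) and −2.88 ± 0.22 in AXL KO (7.34-fold lower, adjusted p = 1.35e-06), with an interaction of −2.02 ± 0.30 (adjusted p = 0.000511). AXL KO was below AXL WT in hypoxia by 3.89-fold (−1.96 ± 0.21, adjusted p = 1.05e-05). When these replicates 2 and 3 of AXL WT hypoxia were left out, the response in AXL WT was −1.57, the genotype difference −1.24 and the interaction −1.30 (adjusted p = 5.96e-07).

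mt-Nd1 (ENSMUSG00000064341, 2751 to 3707), a complex I subunit next to the quinone site whose gene follows mt-Rnr2 and mt-Tl1, fell in AXL KO hypoxia. It stood at 1936, 1838 and 1653 CPM in AXL WT normoxia, 1722, 1982 and 1783 CPM in AXL KO normoxia and 624, 642 and 661 CPM in AXL KO hypoxia. In AXL WT hypoxia it stood at 906, 2179 and 2096 CPM, so replicate 1 lay below all normoxia libraries and replicates 2 and 3 above them. With AXL WT hypoxia replicate 1 left out, the rise in AXL WT passed the test (0.24, adjusted p = 0.0312). With all libraries, the fold change was −1.51 ± 0.25 for hypoxia in AXL KO (adjusted p = 0.000313), −0.07 ± 0.24 for hypoxia in AXL WT (adjusted p = 0.832), −1.43 ± 0.25 for AXL KO against WT in hypoxia (adjusted p = 0.000379) and −1.44 ± 0.35 for the interaction (adjusted p = 0.00957), all on the log2 scale. Without AXL WT hypoxia replicates 2 and 3 it fell in AXL WT too (−0.99, adjusted p = 4.8e-07), and the genotype difference and interaction shrank to −0.50 and −0.52, both still called (adjusted p = 0.000362 and 0.00327). The ratio of mt-Nd1 to mt-Cytb counts was 0.734 to 0.869 in the 9 libraries of the other groups and 1.25, 4.95 and 2.97 in AXL WT hypoxia.

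mt-Nd6 (ENSMUSG00000064368, 13552 to 14070), the sole coding gene of the − strand and a membrane subunit of complex I, fell in AXL KO hypoxia, as mt-Nd1 did. It stood at 25.4, 25.6 and 22.9 CPM in AXL WT normoxia, 39.9, 47.3 and 49.2 CPM in AXL KO normoxia and 4.51, 7.28 and 6.82 CPM in AXL KO hypoxia. In AXL WT hypoxia it stood at 10.1, 38.7 and 40.3 CPM, again with replicate 1 below and replicates 2 and 3 above the normoxia libraries of that genotype. It was 7.32-fold lower in hypoxia than in normoxia in AXL KO (−2.87 ± 0.41, adjusted p = 0.000113), and AXL KO was 4.78-fold below AXL WT in hypoxia (−2.26 ± 0.40, adjusted p = 0.000451). The interaction was −3.14 ± 0.55 (adjusted p = 0.00166) and −1.59 without AXL WT hypoxia replicates 2 and 3 (adjusted p = 0.000103), with a genotype difference in hypoxia of −0.71 then (adjusted p = 0.00751). The value for hypoxia in AXL WT, 0.27 ± 0.38 (adjusted p = 0.561), became −1.27 without both libraries (adjusted p = 7.48e-05) and 0.68 without replicate 1 (adjusted p = 0.00182). In normoxia AXL KO lay above AXL WT without overlap by 0.89 ± 0.38 (adjusted p = 0.0634), a difference that passed without AXL WT hypoxia replicate 1 (adjusted p = 9.93e-05) or 2 (adjusted p = 0.0495), with a replicate block (adjusted p = 0.0494), by DESeq2 (adjusted p = 0.0402) and in the fit of the 6 normoxia libraries (adjusted p = 9.22e-07). mt-Nd6 and mt-Nd5 lie on opposite strands and overlap by 14 bases, and the ratio of their counts was 0.0188 to 0.0206 in AXL WT normoxia, 0.0319 to 0.0372 in AXL KO normoxia, 0.0113 to 0.0165 in AXL KO hypoxia and 0.0197, 0.157 and 0.0949 in AXL WT hypoxia.

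mt-Co1 (ENSMUSG00000064351, 5328 to 6872), the catalytic subunit of complex IV that reduces oxygen, was the sole tested coding gene that rose in AXL WT hypoxia and was not called in AXL KO hypoxia. It stood at 3809.9, 3697 and 3303 CPM in AXL WT normoxia and at 6194, 7253 and 5921 CPM in AXL WT hypoxia. It stood at 4916, 5086 and 5447 CPM in AXL KO normoxia and at 5251, 5422 and 5296 CPM in AXL KO hypoxia. AXL WT normoxia was the low group, AXL WT hypoxia the high group, and the AXL KO groups overlapped between them. mt-Co1 rose in AXL WT by 0.84 ± 0.10 (1.79-fold, adjusted p = 1.99e-05), and in AXL KO the value was 0.05 ± 0.10 (adjusted p = 0.697), or −0.16 when libraries were scaled by their size alone. The interaction was −0.79 ± 0.14 (adjusted p = 0.00145). When AXL WT hypoxia replicates 2 and 3 were left out, the rise in AXL WT was 0.79 (adjusted p = 1.49e-06) and the interaction −0.74 (adjusted p = 0.000117). AXL KO was above AXL WT in normoxia by 0.52 ± 0.10 (1.43-fold, adjusted p = 0.000631) and below it in hypoxia by 1.21-fold (−0.28 ± 0.10, adjusted p = 0.0247). The latter call was lost without AXL WT hypoxia replicates 2 and 3 (adjusted p = 0.0651) or replicate 2 alone (adjusted p = 0.0793), as it was when replicate 1 (0.0759), 2 (0.0566) or 3 (0.0694) of AXL KO hypoxia was left out.

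**Figure D4:**
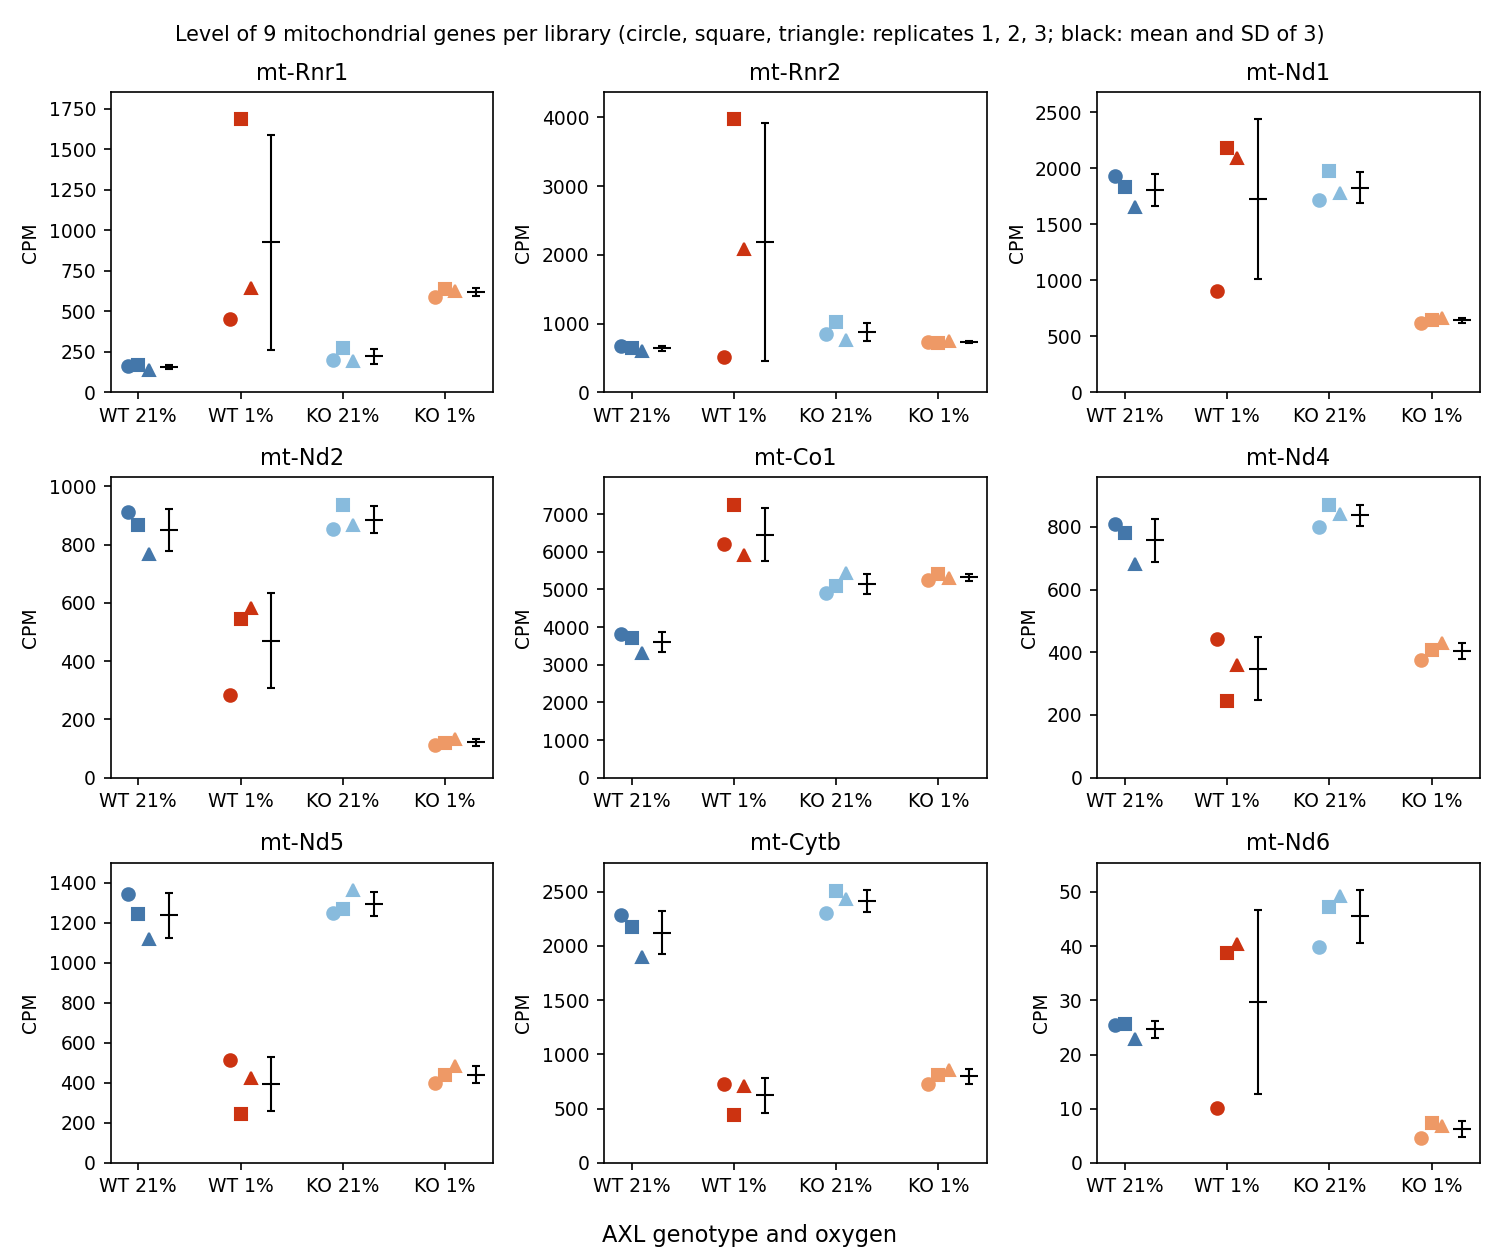
Level (CPM, TMM scaled) of 2 rRNAs and 7 coding genes in each of the 12 libraries, by genotype (AXL WT, KO) and oxygen (21%, 1%), with the mean and SD of 3 libraries in black. The AXL WT hypoxia libraries spread widely for mt-Rnr2 (513 to 3969.8 CPM), while mt-Cytb and mt-Nd5 separate hypoxia from normoxia in every library.

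Shares of the mitochondrial coding counts do not depend on the scaling between libraries. Within these counts, in effect those of the 7 coding genes that passed the filter, mt-Co1 took a larger part in hypoxia. Its share was 34.7% ± 0.360 in AXL WT normoxia, 64.3% ± 5.19 in AXL WT hypoxia (SD, n = 3). In AXL KO it was 41.3% ± 1.28 under normoxia and 68.8% ± 1.42 under hypoxia (SD, n = 3). The lowest hypoxia library, AXL WT replicate 3 at 58.5%, was above the highest normoxia library, AXL KO replicate 3 at 42.6%. mt-Cytb went from 20.4% ± 0.220 to 6.32% ± 2.06 in AXL WT and from 19.4% ± 0.377 to 10.3% ± 0.620 in AXL KO. mt-Nd2 went from 8.17% ± 0.0301 to 4.62% ± 1.34 in AXL WT and from 7.12% ± 0.301 to 1.56% ± 0.106 in AXL KO. mt-Nd1 took 17.4% ± 0.105 and 14.7% ± 0.843 in normoxia and 8.31% ± 0.113 in AXL KO hypoxia, but 9.98%, 19.9% and 20.7% in the AXL WT hypoxia libraries. mt-Nd6 took 0.0602% to 0.398% in all libraries. The coding sum without mt-Co1 was lower in hypoxia in both genotypes, at 6801 ± 595 against 3593 ± 669.6 CPM in AXL WT and 7307 ± 323 against 2413 ± 167 CPM in AXL KO, without overlap.

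**Figure D5:**
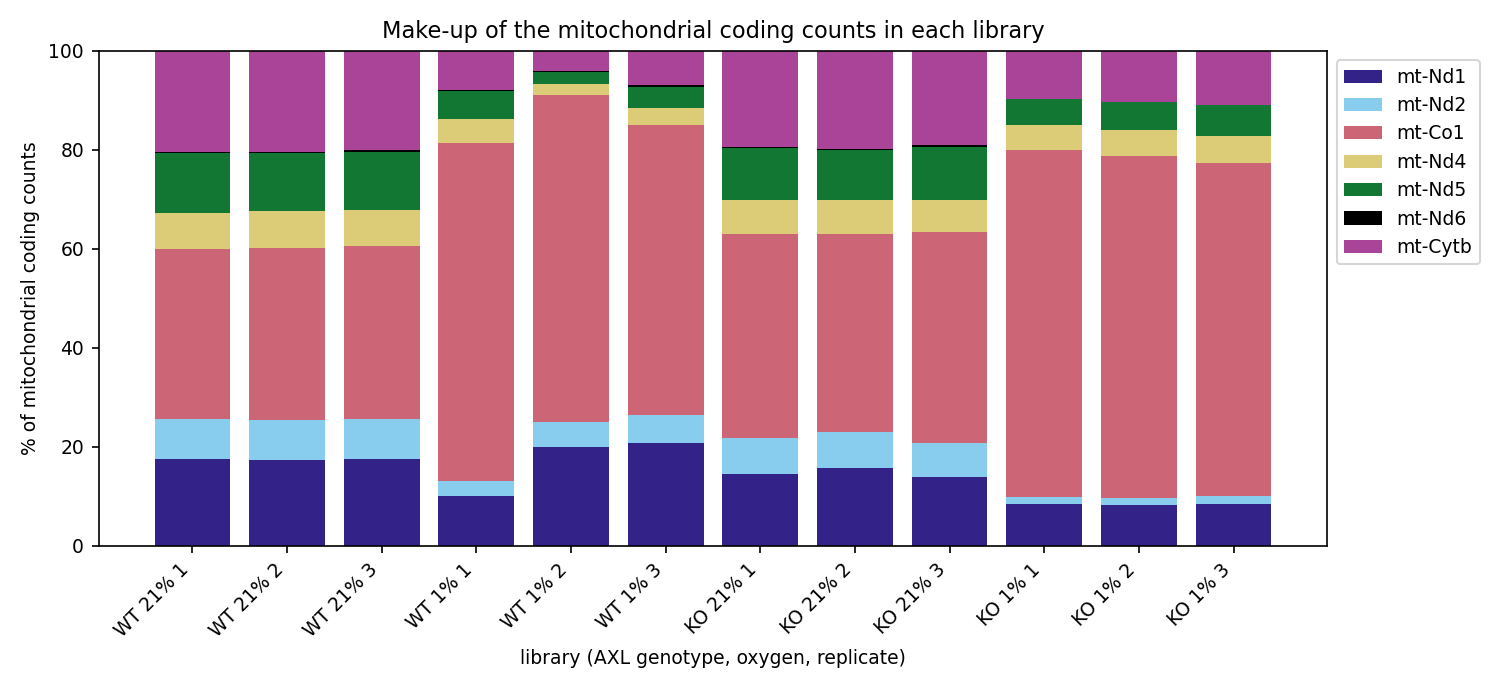
Share of the mitochondrial coding counts taken by each of the 7 tested coding genes in the 12 libraries (stacked to 100%). mt-Co1 takes 34.2% to 42.6% in normoxia libraries and 58.5% to 70.1% in hypoxia libraries, and mt-Nd1 takes 9.98% in AXL WT hypoxia replicate 1 and 19.9% and 20.7% in replicates 2 and 3.

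The tRNAs, which carry amino acids to the mitochondrial ribosome and mark the cutting sites of the precursors, gave few counts in these libraries. All 22 together had 290, 255 and 249 counts under normoxia and 25, 159 and 131 under hypoxia in AXL WT. In AXL KO they had 237, 366 and 340 under normoxia and 11, 13 and 9 under hypoxia. AXL KO hypoxia was thus lowest and did not overlap with any other group, and AXL WT hypoxia replicate 1 came next. The 14 tRNAs of the + strand had 199 to 309 counts per normoxia library and 5 to 11 per AXL KO hypoxia library, and the 8 of the − strand 36 to 69 and 1 to 4. The + strand sums include mt-Tk, mt-Tg and mt-Tr, which lie in the stretch that could not be measured. Whether these counts come from free tRNAs or from uncut precursors was not tested.

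The 6 tRNAs that passed the filter were mt-Tl1 (leucine), mt-Ti (isoleucine), mt-Tq (glutamine), mt-Tm (methionine), mt-Tw (tryptophan) and mt-Tp (proline). They passed through the groups in which they were high, so the counts of calls among them only describe these genes. In AXL KO hypoxia against normoxia all 6 were called lower (30.6% of all genes were), in AXL WT 4 were (30.7% of all genes), and between genotypes in hypoxia 5 were lower in AXL KO (33.0% of all genes). mt-Tl1 (ENSMUSG00000064340, 2676 to 2750) had 142, 116 and 113 counts under normoxia and 4, 62 and 39 under hypoxia in AXL WT, and 98, 169 and 111 against 1, 0 and 0 in AXL KO. Relative to the summed scaled library sizes, its pooled counts were 289 times as high in AXL KO normoxia as in hypoxia (95% exact counting interval 51.6 to 11455) and 101 times as high in AXL WT hypoxia as in AXL KO hypoxia (17.8 to 4039.8). mt-Tw had 41, 47 and 41 counts under normoxia and 5, 12 and 13 under hypoxia in AXL WT, and 66, 75 and 92 against 2, 3 and 1 in AXL KO. mt-Tq had 0 counts in all AXL KO hypoxia libraries and 37 in AXL KO normoxia together, at least 9.44-fold higher against a floor of 3 counts over the group. mt-Ti (2 counts in AXL KO hypoxia against 34 in normoxia, ratio 13.0, interval 3.33 to 112) and mt-Tp (3 against 84, ratio 21.4, interval 7.08 to 106) were low in the same group. The floors and the intervals reflect counting error alone.

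Of the 4 tRNA calls in AXL WT hypoxia, 3 were lost when single libraries were left out, and that of mt-Tw (−1.79, adjusted p = 0.000881) was not. The fall of mt-Tl1 in AXL WT (adjusted p = 0.0468) was lost without any of 10 libraries (adjusted p = 0.0602 to 0.123), that is, all but AXL WT hypoxia replicates 1 and 2. The fall of mt-Tp in AXL WT was lost without AXL WT normoxia replicate 1 or 2 or hypoxia replicate 3 (0.0503 to 0.0543), and that of mt-Tq without normoxia replicate 3 (0.0532). For mt-Tp, AXL KO against WT in hypoxia was lost without AXL WT hypoxia replicate 2 (0.164) or AXL KO hypoxia replicate 1 (0.0865) or 2 (0.0723). The fall of mt-Ti in AXL KO was lost without AXL KO hypoxia replicate 3 (0.0537), and without AXL WT hypoxia replicate 1 mt-Ti rose in AXL WT (1.98, adjusted p = 0.00112), mt-Tq was called lower in AXL KO than in AXL WT in hypoxia (0.0206), and the interaction was called for mt-Tq (0.0258) and mt-Tp (0.0133). With replicates 2 and 3 of AXL WT hypoxia left out, no tRNA was called between genotypes in hypoxia, where 58.3% of all genes were called. In normoxia mt-Tw was higher in AXL KO (0.81 ± 0.30, adjusted p = 0.0354), a call lost without any of 7 libraries (AXL WT normoxia 1, 2 or 3, AXL KO normoxia 1, 2 or 3, or AXL KO hypoxia 1, adjusted p = 0.0505 to 0.136).

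The other 16 tRNAs had at most 9 counts in any library. mt-Tt, which carries threonine, had 2 to 9 counts in normoxia libraries and 1 to 6 in hypoxia libraries. mt-Ta, mt-Tc and mt-Te, on the − strand, had 15, 13 and 12 counts in AXL KO normoxia together and 0 in AXL KO hypoxia, at least 3.83, 3.32 and 3.06-fold higher against the floor. mt-Td, mt-Tk, mt-Tg, mt-Tr and mt-Th had 0 counts in all 12 libraries, and the remaining 7 had 0 to 2. mt-Tk, mt-Tg and mt-Tr lie within the stretch from 7013 to 10173 that could not be measured, and mt-Td (6942 to 7011) lies beside it. Their 0 counts are not read as levels. Only annotated transcripts were compared, so whether these tRNAs have a nuclear copy was not tested.

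Nuclear genes that copy, read and process mitochondrial DNA changed in both directions. The counts for their lists and for the nuclear lists that follow stand against these calls over all genes. They were 59.8% in AXL WT hypoxia (29.2% higher, 30.7% lower) and 58.0% in AXL KO hypoxia (27.3%, 30.6%). Between genotypes they were 59.7% in normoxia (29.7%, 30.0%) and 63.0% in hypoxia (29.9%, 33.0%). In AXL WT hypoxia, of 22 genes of transcription and replication of mitochondrial DNA 2 rose, 9 fell and 11 were not called, with a median log2 fold change of −0.67 against −0.02 for all genes. In AXL KO hypoxia 6 rose, 7 fell and 9 were not called (median 0.06 against −0.03). Ssbp1, the single-strand binding protein of mitochondrial DNA, fell in AXL WT (−1.41 ± 0.15, adjusted p = 8.13e-06), and Exog, a mitochondrial nuclease, rose in both genotypes (1.08 ± 0.12, adjusted p = 1.35e-05, and 1.69 ± 0.12, adjusted p = 7.7e-07). Tfam, which packs mitochondrial DNA and starts its transcription, was at 21.8, 13.6 and 15.7 CPM in AXL WT hypoxia and at 29.3, 33.1 and 32.4 CPM in AXL KO hypoxia, where the mitochondrial coding sum was lowest. It was higher in AXL KO in hypoxia by 0.89 ± 0.15 (adjusted p = 0.000294). Between genotypes 6 of these genes rose, 3 fell and 13 were not called in hypoxia, and 2, 8 and 12 in normoxia. Counts without AXL WT hypoxia replicates 2 and 3, added after the data were seen, were 4 higher and 12 lower for AXL WT hypoxia (median −0.40) and 7 higher and 1 lower between genotypes in hypoxia. Tfam was then higher in AXL KO by 0.53 (adjusted p = 0.000248).

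Of 24 tested genes of mitochondrial RNA processing and decay 2 rose, 10 fell and 12 were not called in hypoxia in each genotype, with medians of −0.29 in AXL WT and −0.15 in AXL KO against −0.02 and −0.03 for all genes. With those replicates left out, 4 were higher and 13 lower in AXL WT hypoxia, and 9 higher and 10 lower between genotypes in hypoxia. In the fit of all libraries, between genotypes 7 rose, 9 fell and 8 were not called in hypoxia, and 2, 9 and 13 in normoxia. Lrpprc, which with Slirp stabilises mitochondrial messenger RNAs, was lower in AXL KO in hypoxia by 1.65 on the log2 scale (−1.65 ± 0.30, adjusted p = 0.000555). Its level was 39.0, 128 and 92.5 CPM in AXL WT hypoxia and at 26.6, 28.7 and 27.2 CPM in AXL KO hypoxia, so AXL WT hypoxia replicate 1 again lay nearest to AXL KO, and with replicates 2 and 3 left out the difference was −0.51 (adjusted p = 0.000172). Trmt10c, a part of the enzyme that cuts the 5′ ends of mitochondrial tRNAs, was lower in AXL KO in hypoxia (−0.72 ± 0.13, adjusted p = 0.000465), and Pnpt1, of the RNA-degrading complex, was lower in AXL KO in normoxia (−1.05 ± 0.12, adjusted p = 1.51e-05). Gtpbp3, which modifies tRNA wobble bases, fell under hypoxia in AXL WT (−0.73 ± 0.10, adjusted p = 4.93e-05) and AXL KO (−0.95 ± 0.10, adjusted p = 8.7e-06).

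Of 24 genes of rRNA maturation and ribosome assembly none rose, 14 fell and 10 were not called in AXL WT hypoxia (median −0.79). In AXL KO hypoxia 3 rose, 11 fell and 10 were not called (median −0.31). Tfb1m, the methylase of the small-subunit rRNA, fell in AXL WT hypoxia (−2.27 ± 0.26, adjusted p = 2.04e-05), as did Mtg1, a GTPase of large-subunit assembly (−2.05 ± 0.18, adjusted p = 2.98e-06). Noa1, a GTPase of ribosome assembly, and Ddx28, a helicase of large-subunit assembly, were lower in AXL KO in both oxygen levels (−1.89 ± 0.14 and −1.58 ± 0.15 in normoxia, −1.46 ± 0.14 and −1.63 ± 0.15 in hypoxia, adjusted p = 3.52e-07, 2.28e-06, 3.36e-06 and 2.52e-06). Between genotypes 8 of the list rose, 5 fell and 11 were not called in hypoxia, and 5, 7 and 12 in normoxia. With replicates 2 and 3 of AXL WT hypoxia left out, 5 were higher and 16 lower in AXL WT hypoxia (median −0.67), and 12 higher and 3 lower between genotypes in hypoxia (median 0.33).

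Of 79 tested mitochondrial ribosomal proteins 9 rose, 40 fell and 30 were not called in AXL WT hypoxia, and 13, 35 and 31 in AXL KO hypoxia (medians −0.33 and −0.28). Over all genes 59.8% (29.2% higher, 30.7% lower) and 58.0% (27.3% higher, 30.6% lower) were called there. In AXL KO against WT 11 rose, 44 fell and 24 were not called in normoxia, and 15, 36 and 28 in hypoxia (medians −0.44 and −0.24). Between genotypes 59.7% (29.7% higher, 30.0% lower) and 63.0% (29.9% higher, 33.0% lower) of all genes were called. On leaving out AXL WT hypoxia replicates 2 and 3, 9 were higher and 52 lower in AXL WT hypoxia (median −0.55), and 14 higher and 32 lower between genotypes in hypoxia (median −0.18). Mrpl2 fell in AXL WT hypoxia (−1.91 ± 0.14, adjusted p = 6.05e-07), Mrps2 fell in AXL KO hypoxia (−2.22 ± 0.26, adjusted p = 2.48e-05) and Mrpl14 rose in both (1.06 ± 0.09 in each, adjusted p = 2.54e-06 and 3.42e-06). Of 13 translation factors 2 rose and 6 fell in AXL WT hypoxia and 1 rose and 5 fell in AXL KO hypoxia (medians −0.46 and −0.25), among them the initiation factor Mtif2 in AXL KO (−2.18 ± 0.28, adjusted p = 4.86e-05). Gfm1, an elongation factor, was lower in AXL KO under normoxia (−1.55 ± 0.12, adjusted p = 3.99e-07) and under hypoxia (−1.09 ± 0.12, adjusted p = 8.61e-06). Of 17 tRNA synthetases 1 rose and 10 fell in AXL WT hypoxia and 2 rose and 7 fell in AXL KO hypoxia (medians −0.82 and −0.17), with Ears2, which charges the glutamate tRNA, at −2.32 ± 0.26 in both (adjusted p = 1.41e-05 and 1.68e-05). In AXL WT hypoxia without its replicates 2 and 3, 2 translation factors were higher and 8 lower, and 2 tRNA synthetases were higher and 11 lower.

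Of 12 regulators of mitochondrial biogenesis 6 rose, 2 fell and 4 were not called in AXL WT hypoxia, and 5, 4 and 3 in AXL KO hypoxia (medians 0.39 and 0.07). In AXL WT hypoxia without its replicates 2 and 3, 7 were higher and 1 lower. Myc, a transcription factor that drives growth and biogenesis genes, stood at 69.8, 63.5 and 83.1 CPM in AXL WT normoxia and 17.4, 15.8 and 15.0 CPM in AXL WT hypoxia. It stood at 75.4, 63.6 and 63.5 CPM in AXL KO normoxia and 5.63, 8.38 and 7.92 CPM in AXL KO hypoxia. Myc fell in both genotypes (−2.17 ± 0.16, adjusted p = 7.74e-07, and −3.21 ± 0.17, adjusted p = 1.21e-07) and more in AXL KO (interaction −1.04 ± 0.22, adjusted p = 0.00518, or −1.16 without those replicates, adjusted p = 0.00192). Mxi1, a MYC antagonist, rose in both (2.44 ± 0.14, adjusted p = 1.37e-07, and 2.32 ± 0.14, adjusted p = 2.62e-07). The response of Ppargc1a, the coactivator PGC-1α that promotes biogenesis, differed between genotypes (interaction −1.69 ± 0.27, adjusted p = 0.00084, or −1.75 without those replicates, adjusted p = 5e-09). It stood at 45.7, 48.3 and 43.1 CPM in AXL WT normoxia and 68.2, 86.2 and 43.7 CPM in AXL WT hypoxia, and at 65.5 to 70.6 CPM in AXL KO normoxia and 28.8 to 32.8 CPM in AXL KO hypoxia.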

How the data were processed

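Total RNA of 12 samples was sequenced, and the deposited counts are whole read pairs per gene. Per the file headers the authors counted with featureCounts 1.6.0 against the Ensembl release 93 annotation, with strand setting 2, both ends mapped, and neither multi-mapping fragments nor fragments overlapping several genes counted. The submitters' processing notes name FastQC 0.11.5, STAR 2.5.1b, featureCounts 1.4.6, DESeq2 1.12.3 and GRCm38. Groups come from the sample titles, since a genotype tag goes against the title in 6 samples. Symbols were found for 54079 of 54232 genes.

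Counts were fitted with edgeR 4.0.16 (R 4.3.3; TMM scaling, filterByExpr with a minimum count of 10, robust quasi-likelihood test, 1 mean per group over all 12 libraries). Of all genes 16767 were tested and 37465 left out. P-values were adjusted by Benjamini-Hochberg over all genes tested, a gene was called at an adjusted p under 0.05, and the SE is the absolute log2 fold change over the root of F. Sums and ratios were compared by two-sided exact permutation tests. Fold changes of tRNAs with 3 or fewer counts in a group are given as ratios of summed counts with exact 95% intervals. Sequences are those of GENCODE M21 transcripts, compared with nuclear transcripts by blastn 2.17.0 at 98% identity. Code was tested on simulated data.

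Alternatives were scaling by DESeq2 size factors or library size alone, no filter or a stricter one, DESeq2 1.42.0, limma-voom (limma 3.58.1), a replicate block, scaling without mitochondrial genes, a fit of 6 libraries, and leaving out each library or AXL WT hypoxia replicates 2 and 3. Coding genes and rRNAs that passed the filter are given per library and the other members by range; single tRNAs and Gm13340 were named after their values were seen. From each nuclear list and comparison up to 3 called genes with the lowest adjusted p could be named, among those with at least 10 CPM in the higher group. The members and lists were chosen with earlier results of these data known.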

Additional observations from a re-analysis of the deposited data

Results flagged for a closer look

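By edgeR's quasi-likelihood interaction test, the response to hypoxia differed between AXL KO and AXL WT for 4 coding genes, 1 rRNA and 4 tRNAs. Of all genes 28.8% were called (15.3% lower in AXL KO). The tRNAs passed the filter through the groups in which they were high, so their calls only describe these genes. The log2 response in AXL KO minus that in AXL WT was -1.442 for mt-Nd1, -2.021 for mt-Nd2, -0.794 for mt-Co1 and -3.143 for mt-Nd6. It was -2.032 for mt-Rnr2, -6.267 for mt-Tl1, -4.945 for mt-Ti, -4.004 for mt-Tm and -3.023 for mt-Tw, and the tRNA values rest on 1 to 6 counts in AXL KO hypoxia and are no bounds. Without AXL WT hypoxia replicates 2 and 3 the 4 coding genes were still called (-0.52, -1.30, -0.74 and -1.59), mt-Rnr2 was at 0.05, and no tRNA was called, where 37.2% of all genes were called. The cause was not tested.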

How the results depend on the processing

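The spread of the AXL WT hypoxia libraries limits every result that rests on them, and tRNA counts of 0 to 6 in AXL KO hypoxia limit the folds there. Over all alternatives, 1447 values of single genes kept their direction and their side of the threshold, 66 lost and 28 gained a call, and 53 changed sign. The median of all genes moved to −0.208, −0.285, −0.318, −0.230 and 0.065 (AXL KO against WT in hypoxia and normoxia, hypoxia in AXL WT and AXL KO, interaction) when libraries were scaled by their size alone. The cause of the changes that follow was not tested.

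With library size alone 1 member was called between genotypes in normoxia, beside 10384 of 16767 genes. There mt-Cytb was at −0.071, mt-Nd1 at −0.241, mt-Nd2 at −0.197, mt-Nd4 at −0.113, mt-Nd5 at −0.193 and mt-Tm at −0.184. On the same scale mt-Nd5 was at −0.015 between genotypes in hypoxia. mt-Nd6 was at −0.016 for hypoxia in AXL WT and mt-Co1 at −0.158 for hypoxia in AXL KO. The coding sum was then −0.538 and 0.007 between genotypes in hypoxia and normoxia, −0.348 for hypoxia in AXL WT and −0.893 in AXL KO, and the rRNA sum 0.194 between genotypes in normoxia and 0.103 for hypoxia in AXL KO. For mt-Tm in AXL WT hypoxia, DESeq2 gave 0.014, its size factors 0.011 and the fit of 6 libraries 0.033. That fit gave 0.006 for mt-Nd1 in AXL WT hypoxia. It called 3 of 9 members tested between genotypes in hypoxia and 5 of 14 in normoxia, against 10 and 2 of 15. Of all genes it called 7696 of 15216 in hypoxia and 12610 of 15866 in normoxia. With no filter 1 member was called in normoxia, beside 10227 of 32197 genes, and mt-Tl1 was at 0.008 there. Of 9 members tested, the stricter filter called 5 between genotypes in hypoxia, 1 in normoxia, 7 for hypoxia in AXL KO, 7 in AXL WT and 5 for the interaction. Of 11135 genes tested it called 7555, 7163, 7200, 7298 and 4169, in the same order. It put mt-Nd1 at −0.026 in normoxia and at 0.002 for hypoxia in AXL WT.

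Replicate numbers were not taken to pair the libraries. Deviations were correlated above 0.1 in 7 of 18 pairs with the same number (range −0.222 to 0.294). The same held for 9 of 36 pairs with different numbers (−0.435 to 0.418). These values do not settle whether the libraries are paired. A replicate block gave 10425, 9915, 9875, 9582 and 4521 called genes, against 10557, 10009, 10035, 9719 and 4830 without it, put mt-Tm at −0.03 between genotypes in normoxia, took mt-Rnr2 out of the interaction (−1.82, adjusted p = 0.0731) and added mt-Nd6 in normoxia (0.853, adjusted p = 0.0494), where 3 members were called against 2.

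Without AXL WT hypoxia replicates 2 and 3, 5 members were called between genotypes in hypoxia, 6 in normoxia and 4 for the interaction, of 16 tested, beside 58.3%, 74.7% and 37.2% of all genes (63.0%, 59.7% and 28.8% with all libraries). Between genotypes in hypoxia mt-Nd4 was at −0.133, mt-Nd5 at −0.222, mt-Rnr1 at 0.444, mt-Rnr2 at 0.504 and mt-Tp at 0.038, with the coding sum at −0.231, the rRNA sum at 0.482, the ratio of rRNA to coding at 0.712 and that of mt-Rnr2 to mt-Rnr1, tried after the data were seen, at 0.06. For hypoxia in AXL WT mt-Nd6 was at −1.271, mt-Rnr2 at −0.31 and mt-Ti at −1.631, with the coding sum at −0.194, the rRNA sum at 0.277 and the ratios at 0.471 and −1.855. For the interaction mt-Cytb was at −0.057, mt-Nd4 at −0.28, mt-Nd5 at −0.29, mt-Rnr2 at 0.052 and mt-Tp at 0.185.

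Leaving out each library in turn gave 1 to 4 members called in normoxia, beside 8873 to 11964 genes. For the interaction 3582 to 8417 genes were called, the highest without AXL WT hypoxia replicate 1. The coding sum for hypoxia in AXL WT ran from −0.119 to 0.021, above 0 without AXL WT hypoxia replicate 1, and the ratio of rRNA to coding between genotypes in hypoxia from −1.094 to 0.044, above 0 without replicate 2. Between genotypes in hypoxia mt-Rnr1 ran from −0.898 to 0.172 and mt-Nd5 from −0.092 to 0.404. In normoxia mt-Tl1 ran from −0.259 to 0.138, mt-Nd1 from −0.038 to 0.111, mt-Tm from −0.151 to 0.352 and mt-Tp from −0.484 to 0.059. For hypoxia in AXL WT mt-Nd1 ran from −0.258 to 0.241, mt-Tm from −0.603 to 0.433 and mt-Nd6 from −0.013 to 0.683. For the interaction mt-Nd4 ran from −0.137 to 0.286, mt-Nd5 from −0.158 to 0.336 and mt-Cytb from −0.035 to 0.298.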
